A study of Homo sapiens with 10 samples.

Results

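The nuclear genes for the subunits of respiratory complexes I, III and IV and of the ATP synthase were followed by RNA sequencing of U2OS, an osteosarcoma cell line of human origin. Members were the protein-coding rows of the gene table whose symbols begin as those of these subunits do (NDUFA, NDUFB, NDUFC, NDUFS or NDUFV with a number, NDUFAB1, UQCR, COX4 to COX8 and ATP5), with the NDUFAF assembly factors left out. The rule took 86 genes out of 60671. Averaged across the 9 replicated libraries, 73 of the 86 reached 10 normalized counts. The 73 were 35 of 38 members for complex I, 8 of 9 for complex III, 12 of 19 for complex IV and 18 of 20 for the ATP synthase. Normalized counts are reads per gene divided by a size factor of the library.

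All libraries came from the same cell line with no genetic change. EBSS+VBL+Gln+Ars cells, called glutamine-recovered here, were kept for 18 h in EBSS, a balanced salt solution without amino acids or serum, with VBL (vinblastine, a microtubule-disrupting drug) and glutamine, and were then given arsenite, an oxidative stressor, for 50 min. EBSS+VBL+Ars cells (starved cells) had the same treatment without glutamine, Ars cells had arsenite for 50 min without starvation or VBL, and each of these groups had 3 libraries. One library came from untreated cells. Starvation and VBL were given together and cannot be told apart here. Whether the 3 libraries of a group were separate cultures is not given in the sources used here, and p-values then measure only a spread between libraries that may be technical. The arsenite dose is not in the labels.

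Complex I takes electrons from NADH, complex III passes them from ubiquinol to cytochrome c, and complex IV passes them to oxygen. These complexes pump protons out of the mitochondrial matrix, and the ATP synthase lets them flow back to make ATP. Most subunits are encoded in the nucleus, made in the cytosol and imported, while a few of the catalytic ones are encoded by mitochondrial DNA. Promoters of the nuclear genes are known for sites of NRF1, of the ETS factor GABP (NRF2 of the older naming) and of YY1.

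The 250 bases before the start of the annotated main transcript were searched on both strands for GCGCANGCG followed by C (NRF1), CCGGAAGT (the ETS factors, GABP among them) and AAGATGGC (YY1), in the 61 of 73 members matched in the RefSeq promoter table of GRCh38.p14. The NRF1 letters were in 12 of the 61 member promoters (19.7%), against 11.4% of 9350 promoters of protein-coding genes tested and 7.99% of 15298 protein-coding promoters in all. CCGGAAGT was in 11 of 61 (18.0%), against 7.85% of those of genes tested and 5.31% of all. AAGATGGC was in 1 of 61 (1.64%), against 1.84% and 1.35%. GCGCANGCG without the further C, counted after the longer form had been seen, was in 18 of 61 (29.5%), against 14.4% and 10.3%. The strands can both match the NRF1 letters at 1 place, since these nearly read the same on both. The 180 bases before the start are printed for a complex I, a complex III and an ATP synthase member that were lower in starved cells, and for the single member that was higher, with matches to these letters in capitals. A match is a description of the sequence, not evidence of a bound site.
NDUFB4 (chr3:120596156-120596335, plus strand): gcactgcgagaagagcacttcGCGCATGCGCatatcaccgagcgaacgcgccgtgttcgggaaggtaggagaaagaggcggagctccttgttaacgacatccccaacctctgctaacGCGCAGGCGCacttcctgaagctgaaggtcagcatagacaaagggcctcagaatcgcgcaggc
UQCRQ (chr5:132866462-132866641, plus strand): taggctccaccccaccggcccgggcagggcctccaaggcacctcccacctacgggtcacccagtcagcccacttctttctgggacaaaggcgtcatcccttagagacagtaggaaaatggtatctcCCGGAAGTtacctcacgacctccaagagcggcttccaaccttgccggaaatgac
ATP5PD (chr17:75046970-75047149, minus strand): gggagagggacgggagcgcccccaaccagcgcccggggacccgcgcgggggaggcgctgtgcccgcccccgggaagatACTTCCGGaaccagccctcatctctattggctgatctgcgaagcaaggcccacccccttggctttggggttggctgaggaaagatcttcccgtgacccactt
COX7A2L (chr2:42361218-42361397, minus strand): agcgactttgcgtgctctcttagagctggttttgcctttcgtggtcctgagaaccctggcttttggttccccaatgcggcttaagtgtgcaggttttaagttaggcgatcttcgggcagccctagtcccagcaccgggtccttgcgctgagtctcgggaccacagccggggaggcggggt
Each is written 5′ to 3′ on the strand of its gene. NDUFB4 held 2 places that match NRF1's letters, UQCRQ and ATP5PD held an ETS match each, and COX7A2L held none. The printed promoters are examples and do not stand for their groups. Other members called lower in starved cells had no match in the 250 bases, among them NDUFA8, NDUFB10, NDUFS3, UQCR10 and ATP5IF1. The ETS letters were in 3 of 20 matched members called lower in starved cells and in 8 of 41 others, and the NRF1 letters in 4 of 20 and 8 of 41.

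Starved cells were compared with Ars cells to ask what starvation with VBL does to cells under the same arsenite stress. Respiratory chain and ATP synthase members were mostly lower in starved cells. Of the 73, 25 were called lower and 1, COX7A2L, was called higher, where a gene was called at a limma adjusted p under 0.05 (Benjamini-Hochberg over all 12971 genes tested) and a change of at least 1.5-fold. Over all genes tested 21.3% were called lower and 21.5% higher, so the members' share called lower was 34.2% against 21.3%, and their share called higher 1.37% against 21.5%. The median log2 fold change was -0.45 over the members and 0.02 over all genes tested. The estimate was below 0 for 67 of the 73. With libraries rescaled to equal totals 44 members were called lower (against 27.9% of all genes tested) and none higher (16.0%). In 46 members all 3 starved libraries were below all 3 Ars libraries, and 29.5% of all genes tested did so. In bulk RNA of 1 cell line, a fall in some cells and a smaller fall in all cells cannot be told apart. Counts are scaled per library, so they give levels relative to other genes and not RNA per cell.

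**Figure D1:**
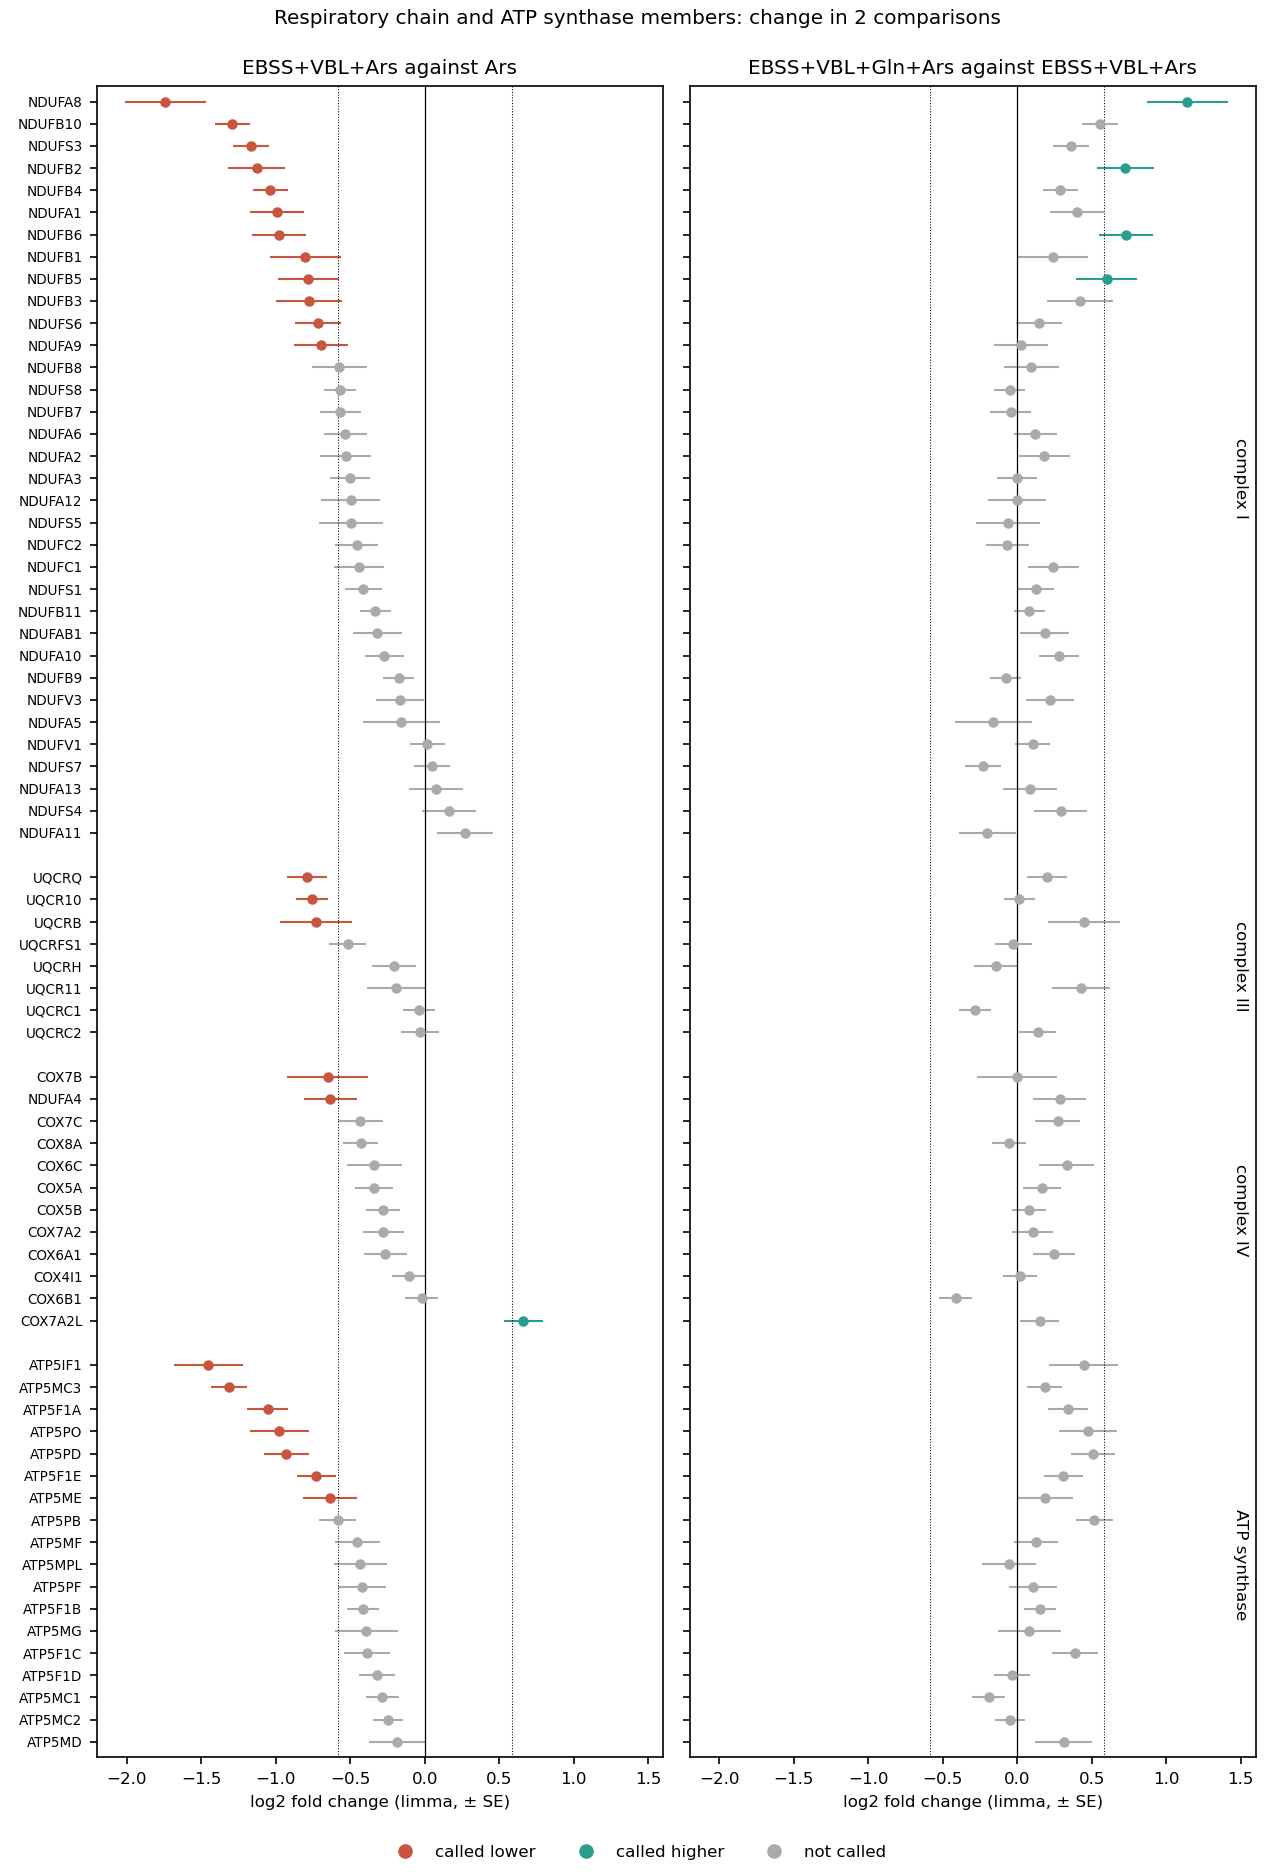
Log2 fold change (± SE, limma) of 72 of the 73 members, by complex, in EBSS+VBL+Ars against Ars libraries (left) and in EBSS+VBL+Gln+Ars against EBSS+VBL+Ars libraries (right), with dotted lines at 1.5-fold. On the left 24 of those drawn are called lower and 1 (COX7A2L) higher, and on the right 4 complex I members are called higher and none lower.

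In complex I 13 of 35 members were called lower (37.1%, against 21.3% of all genes tested) and none higher. The median log2 fold change was -0.53. The largest fall of any member was that of NDUFA8, an accessory subunit of the membrane arm that faces the intermembrane space (ENSG00000119421, GRCh38 chromosome 9, 122144058 to 122159779, minus strand). It had 38.2, 14.0 and 18.8 normalized counts in starved libraries, against 74.3, 69.9 and 80.5 in Ars libraries. Starved replicate 1 was above the other starved libraries and still below every Ars library. The log2 fold change was -1.74 ± 0.27 (SE) with a limma adjusted p of 2.26e-05.

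NDUFB10, another subunit of the membrane arm, had 124, 122 and 125 normalized counts in starved libraries and 327, 291 and 294 in Ars libraries. Its starved libraries lay within a few counts of each other, and it fell by 1.29 ± 0.12 on the log2 scale (limma adjusted p = 2.77e-08). NDUFS3, a core subunit of the module that reduces ubiquinone, had 189, 159 and 160.2 normalized counts in starved libraries and 362, 404 and 375 in Ars libraries (log2 fold change -1.17 ± 0.12, limma adjusted p = 1.38e-07). NDUFB4, whose promoter is printed above, had 209, 199 and 202 normalized counts in starved libraries and 414, 409 and 433 in Ars libraries (log2 fold change -1.04 ± 0.12, limma adjusted p = 4.96e-07). In these 3 genes the starved and Ars libraries were far apart, with no overlap.

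Other complex I members called lower included NDUFA1, NDUFA9, NDUFB1, NDUFB2, NDUFB3, NDUFB5, NDUFB6 and NDUFS6, with log2 fold changes of -1.13 (NDUFB2) to -0.70 (NDUFA9). The calls of NDUFA9 and NDUFB3 were lost without starved replicate 3, and that of NDUFB5 without starved replicate 2. The 22 complex I members that were not called included core subunits. Among these, NDUFS8 (log2 fold change -0.57 ± 0.11, limma adjusted p = 1.42e-04) and NDUFS1 (-0.41 ± 0.12, limma adjusted p = 0.00847) were lower. Both passed the p threshold and not the fold threshold, with no overlap between starved and Ars libraries. NDUFV1, which binds NADH and the flavin and had the most counts of the complex I members, had 870.5, 985 and 1013 normalized counts in starved libraries and 862, 1037 and 939.9 in Ars libraries, which overlap (log2 fold change 0.02 ± 0.12, limma adjusted p = 0.917). NDUFS7, a core subunit that carries an iron-sulfur cluster, had 252, 276 and 295 in starved and 255, 288 and 251 in Ars libraries, also overlapping (log2 fold change 0.05 ± 0.12). NDUFS1, NDUFS7 and NDUFS8 lie outside the rule for naming genes and were picked after their values were seen.

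In complex III 3 of 8 members were called lower (37.5%, against 21.3% of all genes tested) and none higher, with a median of -0.36. All 3 are small subunits of the complex. UQCRQ had 310.0, 318 and 233 normalized counts in starved libraries and 511, 467 and 499 in Ars libraries (log2 fold change -0.79 ± 0.14, limma adjusted p = 6.50e-05). UQCR10 had 286, 274 and 302 in starved libraries and 495, 463 and 501 in Ars libraries (log2 fold change -0.76 ± 0.11, limma adjusted p = 6.69e-06). The groups did not overlap in either gene. With the trends with GC content and transcript length both removed, their changes of -0.58 (UQCRQ) and -0.55 (UQCR10) fell short of 1.5-fold. UQCRB had 101, 105 and 46.4 in starved libraries and 151, 102 and 148 in Ars libraries, and only starved replicate 3 was well below the Ars libraries. Its log2 fold change was -0.73 ± 0.24 (limma adjusted p = 0.0155), and without starved replicate 3 it was -0.35 (adjusted p = 0.132). The call was also lost without Ars replicate 1 (adjusted p = 0.0627) and without Ars replicate 3 (adjusted p = 0.0626).

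UQCRFS1, the Rieske iron-sulfur protein that passes electrons towards cytochrome c, had 357, 283 and 289 normalized counts in starved libraries and 472, 446 and 409 in Ars libraries, with no overlap. Its log2 fold change of -0.52 ± 0.12 passed the p threshold (limma adjusted p = 0.00152) and not the fold threshold. UQCRC1 is a core subunit and had the most counts of the complex III members. It had 1503, 1668 and 1710.3 in starved and 1618, 1811 and 1592 in Ars libraries, which overlap (log2 fold change -0.04 ± 0.11).

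Complex IV had 2 of 12 members called lower (16.7%) and 1 higher (8.33%), with a median of -0.31. Both shares were under those of all genes tested, 21.3% and 21.5%. Both calls of a lower level were weak. NDUFA4, first assigned to complex I and now placed in complex IV, had 328, 199 and 222 normalized counts in starved libraries and 419, 306 and 423 in Ars libraries. Starved replicate 1 lay inside the range of the Ars libraries (log2 fold change -0.63 ± 0.18, limma adjusted p = 0.00515). The change fell short of 1.5-fold without Ars replicate 1 (-0.56) or 3 (-0.55) and without starved replicate 2 (-0.49) or 3 (-0.57), and likewise with the GC trend removed (-0.58) or the GC and length trends removed (-0.50). COX7B had 219, 206 and 79.5 in starved libraries and 191, 229 and 321 in Ars libraries, with the low value in starved replicate 3 alone. Its log2 fold change was -0.65 ± 0.27 (limma adjusted p = 0.0461). It was -0.18 (adjusted p = 0.416) without starved replicate 3, and the adjusted p was 0.0605 without Ars replicate 2, 0.213 without Ars replicate 3, and 0.0615 and 0.0538 without glutamine-recovered replicates 1 and 3. COX7B was called in 13 of 23 settings, and the others that lost it were DESeq2 (adjusted p = 0.226), removal of the GC trend or of GC and length trends, a minimum mean of 50 and a fit of only the groups compared.

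COX7A2L was the only member called higher. It is a relative of the COX7A subunits that is known to join complexes III and IV in supercomplexes (ENSG00000115944, GRCh38 chromosome 2, 42333546 to 42425088, minus strand). It had 617, 482 and 499 normalized counts in starved libraries and 396, 286 and 329.5 in Ars libraries, with no overlap (log2 fold change 0.66 ± 0.13, limma adjusted p = 2.65e-04). It passed the p threshold but not 1.5-fold when libraries were rescaled to equal totals (0.48), under quantile normalization (0.48), without Ars replicate 2 (0.55) and without starved replicate 1 (0.55). COX7A2, the COX7A form of most tissues, had 359, 257 and 259 in starved and 343, 362 and 343 in Ars libraries, which overlap (log2 fold change -0.28 ± 0.14, limma adjusted p = 0.0936). The ratio of COX7A2L to COX7A2 was 1.72, 1.88 and 1.93 in starved libraries and 1.15, 0.789 and 0.961 in Ars libraries, and it was picked after these values were seen.

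The other complex IV members were not called. COX4I1, which had the most counts of the complex IV members, had 951, 843 and 809 normalized counts in starved and 1009, 870.1 and 924 in Ars libraries, which overlap (log2 fold change -0.11 ± 0.11). COX6B1, which faces the intermembrane space, had 631, 562 and 548 in starved and 589, 538 and 638 in Ars libraries (log2 fold change -0.02 ± 0.11). The starved and Ars ranges of COX6B1 overlapped. COX6A1, the form of subunit VIa found in most tissues, had 222, 163 and 158 in glutamine-recovered, 161, 139.7 and 152 in starved and 191, 184 and 169 in Ars libraries (log2 fold change of starved against Ars -0.26 ± 0.14), with all starved libraries below the Ars libraries. COX8A, the form of subunit VIII found in most tissues, had 756, 606 and 849 in starved and 1012, 966 and 974 in Ars libraries with no overlap, a log2 fold change of -0.43 ± 0.12 (limma adjusted p = 0.00372). COX7C had 420.1, 340.5 and 262 in starved and 472, 386 and 508 in Ars libraries, with 1 starved library inside the Ars range (log2 fold change -0.43 ± 0.15, limma adjusted p = 0.0203). Both were under the fold threshold.

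For the ATP synthase 7 of 18 members were called lower (38.9%, against 21.3% of all genes tested) and none higher. The median was -0.44, and the estimate was below 0 for all 18. ATP5F1A, the alpha subunit of the catalytic head (ENSG00000152234, GRCh38 chromosome 18, 46080248 to 46104334, minus strand), had 592, 389 and 409.9 normalized counts in starved libraries and 1003, 943 and 901 in Ars libraries (log2 fold change -1.06 ± 0.14, limma adjusted p = 2.28e-06). Its catalytic partner ATP5F1B, the beta subunit, had the most counts of the ATP synthase members, with 1435, 1198 and 1237 in starved libraries and 1771, 1767 and 1617 in Ars libraries. ATP5F1B passed the p threshold and not the fold (log2 fold change -0.42 ± 0.11, limma adjusted p = 0.00273). ATP5IF1, the small protein that inhibits ATP hydrolysis by the enzyme, had 41.6, 29.7 and 34.3 in starved libraries and 103, 83.8 and 106 in Ars libraries, with no overlap (log2 fold change -1.45 ± 0.23, limma adjusted p = 3.26e-05). An annotated exon of ATP5IF1 overlaps a gene on the other strand.

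The peripheral stalk keeps the catalytic head from turning with the rotor, and 2 of its 4 members were called lower, ATP5PD and ATP5PO. ATP5PD had 266, 234 and 186 normalized counts in starved libraries and 442, 367 and 494 in Ars libraries (log2 fold change -0.93 ± 0.15, limma adjusted p = 3.05e-05). The other members called lower were ATP5F1E of the head and ATP5ME of the membrane part, at -0.73 and -0.64. ATP5ME was not called under quantile normalization or without Ars replicate 1.

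The proton-driven c-ring is built from 1 mature protein encoded by ATP5MC1, ATP5MC2 and ATP5MC3, which differ in the targeting peptide that is cut off at import. ATP5MC3 had 311, 243 and 293 normalized counts in starved libraries and 779.8, 643 and 683 in Ars libraries (log2 fold change -1.31 ± 0.12, limma adjusted p = 2.35e-08). ATP5MC2 had 1353, 1217 and 1455 in starved and 1497, 1634 and 1638 in Ars libraries (log2 fold change -0.25 ± 0.10, limma adjusted p = 0.0449). ATP5MC1 had 294, 267 and 261 in starved and 340.3, 331 and 330.4 in Ars libraries (log2 fold change -0.29 ± 0.11, limma adjusted p = 0.0355). None of the 3 overlapped between groups, and only ATP5MC3 passed the fold threshold. The ratio of ATP5MC3 to ATP5MC2 counts was 0.230, 0.199 and 0.201 in starved libraries and 0.521, 0.393 and 0.417 in Ars libraries. That of ATP5MC3 to ATP5MC1 was 1.06, 0.908 and 1.12 in starved and 2.29, 1.94 and 2.07 in Ars libraries. Neither ratio overlapped between the groups, and an exact permutation test of 3 against 3 libraries gave its smallest possible p, 0.10 (two-sided), for each. The ranges of the 3 genes already fix that separation, so the test adds no support.

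**Figure D2:**
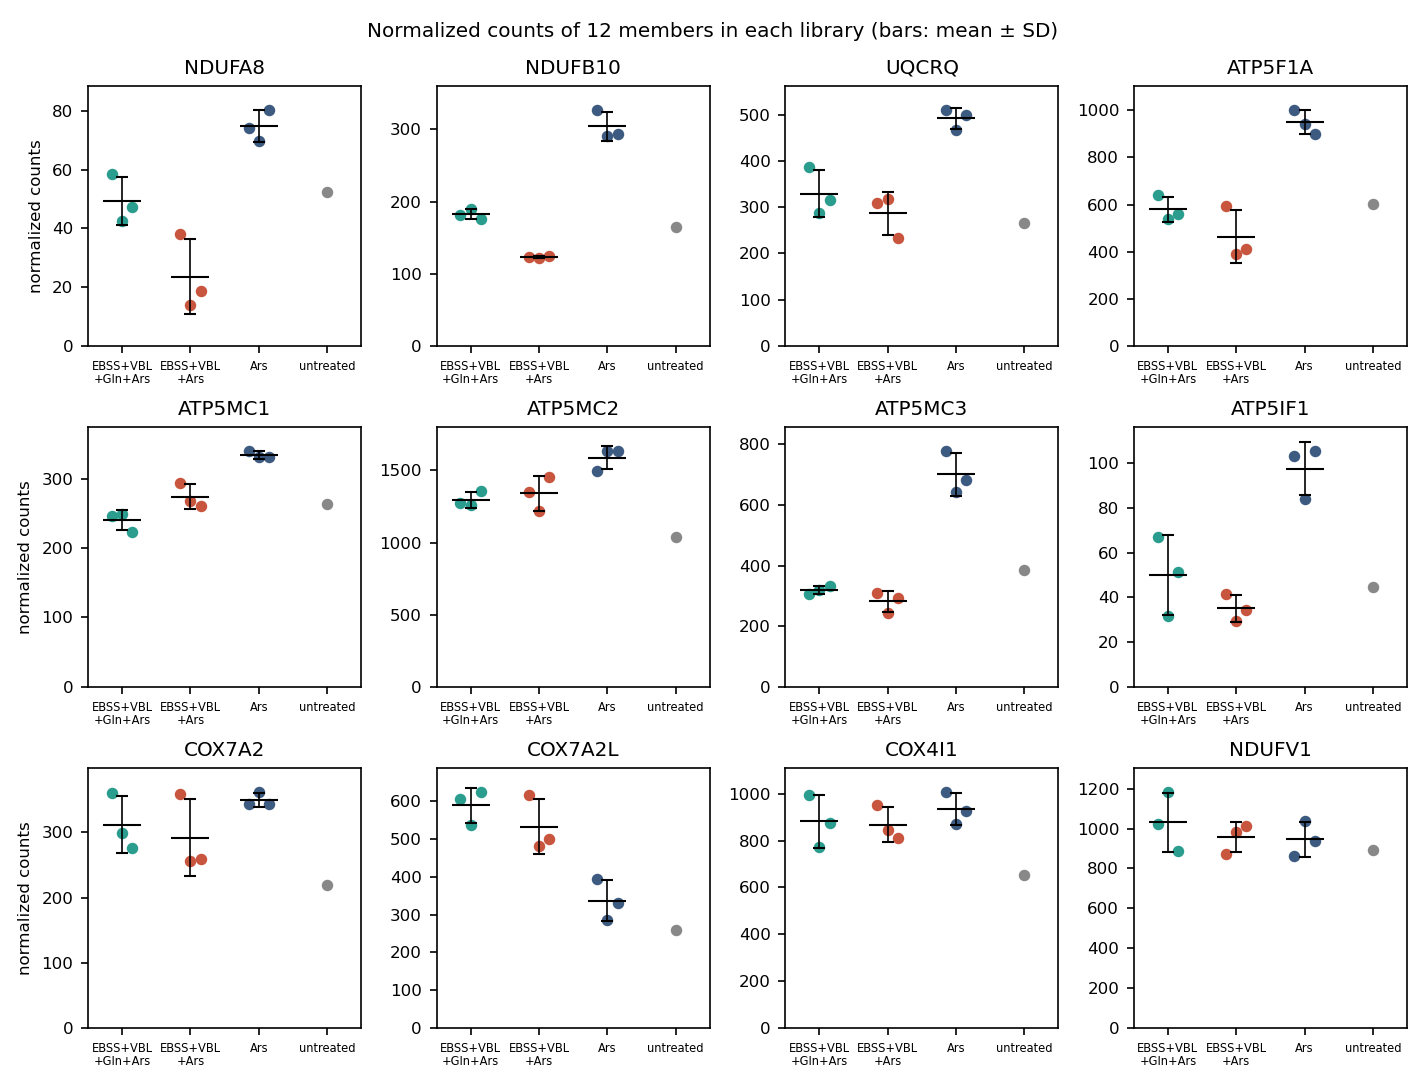
Normalized counts of 12 members in each library (points), with mean ± SD for the groups of 3 libraries, in EBSS+VBL+Gln+Ars, EBSS+VBL+Ars, Ars and untreated cells. ATP5MC3 starved libraries sit at 243 to 311, against 643 to 779.8 in Ars libraries, while the ranges of NDUFV1 and COX4I1 overlap.

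Glutamine-recovered cells were compared with starved cells to ask what glutamine alone changes in the starved state. Of the 73 members, 4 were called higher, all of them complex I subunits of the membrane arm that were also lower in starved than in Ars cells (NDUFA8, NDUFB2, NDUFB5 and NDUFB6), and none was called lower. Over all genes tested 8.45% were called higher and 8.52% lower, against 5.48% and 0% of members. At an unadjusted p under 0.05, 17 members were higher (23.3%, against 19.2% of all genes tested) and 2 lower (2.74%, against 21.1%). On recovered reads edgeR and DESeq2 each called 3 higher and none lower, where edgeR called 8.20% of all genes higher and 8.26% lower, and DESeq2 6.69% and 7.86%. With libraries rescaled to equal totals 20 members were called higher and none lower, where 21.9% of all genes were called higher and 2.54% lower, and that scaling moved the median of all genes to 0.28 on the log2 scale. The median log2 fold change of members was 0.15, against 0.00398 over all genes tested, and the estimate was above 0 for 53 of the 73.

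NDUFA8 had 58.4, 42.5 and 47.3 normalized counts in glutamine-recovered libraries, against 38.2, 14.0 and 18.8 in starved libraries (log2 fold change 1.14 ± 0.27, limma adjusted p = 0.00434). NDUFB6 had 135, 126 and 121 in glutamine-recovered and 110.1, 64.6 and 63.0 in starved libraries (log2 fold change 0.73 ± 0.18, limma adjusted p = 0.00586). NDUFB2 had 120.1, 66.4 and 102 in glutamine-recovered and 52.8, 54.1 and 61.9 in starved libraries (log2 fold change 0.72 ± 0.19, limma adjusted p = 0.00849). In all 3 every glutamine-recovered library was above every starved one. That held for 9 of the 73 members and for 2384 of the 12971 genes tested. NDUFB5 had 101, 71.8 and 93.9 in glutamine-recovered and 73.0, 40.2 and 65.2 in starved libraries, and these overlap (log2 fold change 0.60 ± 0.20, limma adjusted p = 0.0327). Its call was kept in 13 of 23 settings, among the lost ones edgeR and DESeq2 on recovered reads and the fit with the GC trend taken out of each library. NDUFB6 was not called once that trend was removed, and NDUFB2 was not called without glutamine-recovered replicate 1. Exons of NDUFB2 and NDUFB6 overlap a gene on the other strand.

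The number called higher was 2 without glutamine-recovered replicate 1, 8 without glutamine-recovered replicate 2 and 7 without starved replicate 1. Removing the trend with transcript length gave 7. Glutamine-recovered replicate 1 was the highest of its group in 48 of 73 members, and starved replicate 1 in 45. Fold changes in this comparison ran with GC content, with a Pearson correlation across genes of -0.30 over the 73 members and -0.39 over 12960 genes tested. Genes are not independent replicates, and the part of GC content in these changes was not tested beyond that removal.

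Of the 25 members lower in starved than in Ars cells, 24 had a positive estimate with glutamine. Low values in the same starved libraries picked these members and also favour a positive estimate. No share over all genes called lower was counted beside the 24. NDUFB10, one of them, had 182, 189 and 175 normalized counts in glutamine-recovered and 124, 122 and 125 in starved libraries (log2 fold change 0.56 ± 0.12, limma adjusted p = 0.00194), above in every library and just short of 1.5-fold. ATP5PD had 381, 288 and 304 in glutamine-recovered and 266, 234 and 186 in starved libraries (log2 fold change 0.51 ± 0.15, limma adjusted p = 0.0156). The glutamine estimates of others were near 0. ATP5MC3 had 306, 319 and 332 in glutamine-recovered libraries and a change of 0.18 ± 0.12, and UQCR10 had 288, 279.8 and 303 and a change of 0.01 ± 0.11. COX6B1 was the member with the most negative estimate, with 473, 391 and 444 in glutamine-recovered and 631, 562 and 548 in starved libraries (log2 fold change -0.41 ± 0.11, limma adjusted p = 0.0101), under the fold threshold.

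Of the same 25 members, 24 had a group mean with glutamine between the starved and the Ars means, and 10 were still called lower in glutamine-recovered than in Ars cells. These comparisons share libraries, so the values are set side by side only. Low starved and high Ars values picked these members and also favour a glutamine mean between them. The matching shares among all genes called lower were not counted. Against Ars cells, glutamine-recovered cells had 12 of 73 members called lower (16.4%) and 1 higher (COX7A2L, 1.37%). Of all genes tested 15.3% were called lower and 16.5% higher. The members' share called lower was thus near that of all genes tested. The median over members was -0.35. The 12 were 7 of complex I, 2 of complex III and 3 of the ATP synthase, with none of complex IV.

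ATP5MC3 was the lowest of these, with 306, 319 and 332 normalized counts in glutamine-recovered libraries against 779.8, 643 and 683 in Ars libraries (log2 fold change -1.13 ± 0.12, limma adjusted p = 3.03e-07). ATP5IF1 had 67.1, 31.6 and 51.4 in glutamine-recovered libraries against 103, 83.8 and 106 in Ars libraries (log2 fold change -1.01 ± 0.23, limma adjusted p = 0.00169). NDUFS3 had 228, 223 and 199 in glutamine-recovered libraries against 362, 404 and 375 in Ars libraries (log2 fold change -0.81 ± 0.12, limma adjusted p = 2.13e-05). In these 3 members the libraries with glutamine lay wholly below those with arsenite alone. That held for 38 of the 73 members and for 3613 of the 12971 genes tested. COX7A2L had 605, 538 and 626 in glutamine-recovered libraries against 396, 286 and 329.5 in Ars libraries (log2 fold change 0.81 ± 0.13, limma adjusted p = 4.71e-05). The number called lower was 9 to 19 when libraries were left out in turn, the 19 without glutamine-recovered replicate 1, and it was 7 with equal totals (against 12.3% of all genes tested). Of the 4 genes that rose with glutamine, none was called against Ars cells, at log2 fold changes of -0.60 ± 0.27 for NDUFA8 (limma adjusted p = 0.0799) to -0.18 ± 0.20 for NDUFB5 (adjusted p = 0.493). That does not show that they had returned to the Ars level.

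Summed over the 73 members, normalized counts were 21647 ± 1265 in glutamine-recovered libraries, 20436 ± 1190 in starved libraries and 26999 ± 514 in Ars libraries (SD, n = 3 each), and 19155 in the untreated library. For complex I the sums were 7077 ± 431 with glutamine, 6497 ± 206 in starved, 8863 ± 63.3 in Ars libraries and 6617 in the untreated library. For the ATP synthase they were 6758 ± 471 with glutamine, 6047 ± 576 in starved, 8824 ± 179 in Ars libraries and 6016 in the untreated library. For complexes I and III and the ATP synthase the starved and glutamine-recovered sums lay below the Ars sums with no overlap. Complex III sums were 2920 ± 6.43 with glutamine, 3131 ± 67.0 in starved and 3814 ± 77.9 in Ars libraries, and the untreated sum was 2683. The order of glutamine-recovered and starved cells in complex III depends on the scaling. As a share of all reads on genes, complex III took 0.0585 to 0.0673% with glutamine and 0.0512 to 0.0574% in starved libraries, the reverse of the order of the normalized sums, with no overlap on either scale. Complex IV sums overlapped, at 4891 ± 435 with glutamine, 4762 ± 519 in starved, 5498 ± 327 in Ars libraries and 3839 in the untreated library. The sums were not tested.

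**Figure D3:**
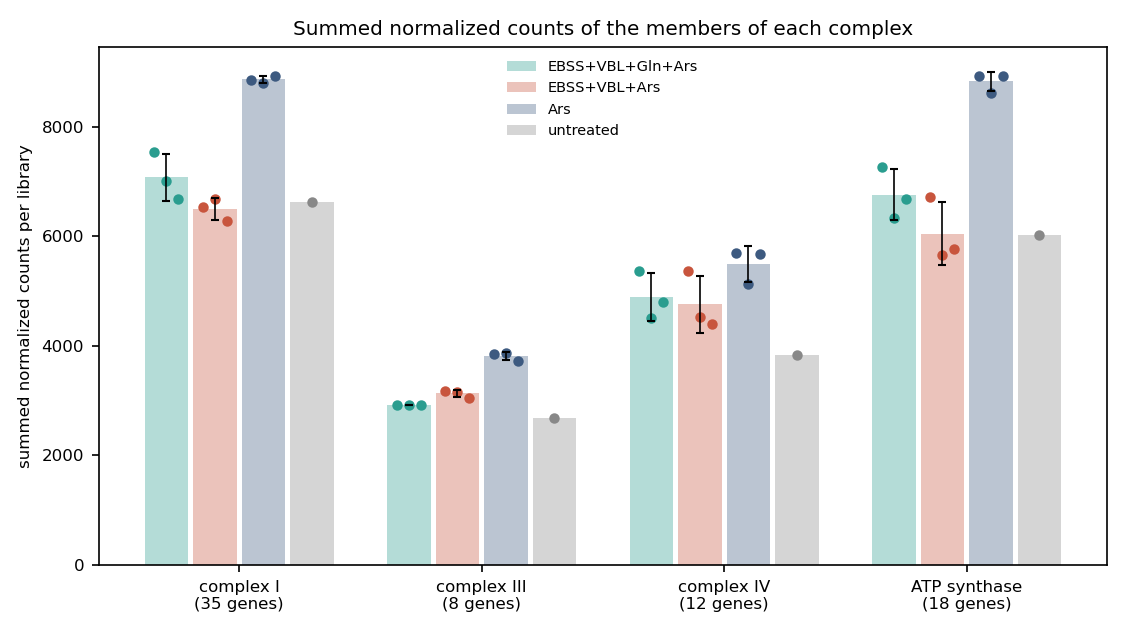
Summed normalized counts of the tested members of each complex in each library (points), with the group mean (bars) ± SD for the groups of 3 libraries, in EBSS+VBL+Gln+Ars, EBSS+VBL+Ars, Ars and untreated cells. Ars sums of complex I, 8803 to 8929, are above all 7 others of that complex, and complex IV sums overlap between the 3 treated groups.

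Ars cells were set beside the 1 untreated library to show where 50 min of arsenite left these genes. There is no replicate of untreated cells and so no test. The Ars mean was at least 1.5-fold higher in 39 of 73 members and at least 1.5-fold lower in none, where 20.5% of all genes tested were higher and 18.7% lower by that rule. The median ratio was 1.53 over members and 1.01 over all genes tested. All 3 Ars libraries were above the untreated library in 64 members (87.7%, against 39.7% of all genes tested) and below it in none. By single Ars libraries, counted after the means had been seen, 40, 29 and 39 members were at least 1.5-fold above the untreated library, against 20.3, 21.1 and 20.9% of all genes tested. The last of these, Ars replicate 3, is numbered together with the untreated library in the file's column names, as are the other replicates 3, while replicates 1 and 2 form the other run of numbers. What these runs stand for is not given in the sources used here.

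NDUFB4 had 414, 409 and 433 normalized counts in Ars libraries against 161 in the untreated library (Poisson 95% interval 137 to 187, which covers counting error only), a ratio of 2.61. ATP5MC3 had 779.8, 643 and 683 in Ars libraries against 385 in the untreated library (interval 349 to 425), a ratio of 1.82. ATP5IF1 had a ratio of 2.18, and NDUFB1, picked for the highest ratio, had 3.71. NDUFV1 was close to 1, with 862, 1037 and 939.9 in Ars libraries against 891 in the untreated library (interval 835 to 950.0). Members have short transcripts, with a median length of 744 bases against 3156 over all genes tested. Among tested genes under 800 bases 33.5% were at least 1.5-fold higher in Ars cells, against 60.0% of the 40 members of that length.

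Starved cells, which also had arsenite, were nearer to the untreated library. The ratio of the starved mean to it had a median of 1.11 over members, that of glutamine-recovered cells 1.25, and 66 of the 73 members had a starved mean within 1.5-fold of it (90.4%, against 54.4% of all genes tested). Of the 25 members lower in starved than in Ars cells, 17 were also at least 1.5-fold higher in Ars cells than in the untreated library. Both counts use the Ars libraries, where high values favour both. The matching share among all genes called lower was not counted. NDUFA8 was under the untreated library when starved, with 38.2, 14.0 and 18.8 normalized counts against 52.3, and NDUFS3 was as well, with 189, 159 and 160.2 against 338. COX7A2L was above it, with 617, 482 and 499 against 259.6.

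**Figure D4:**
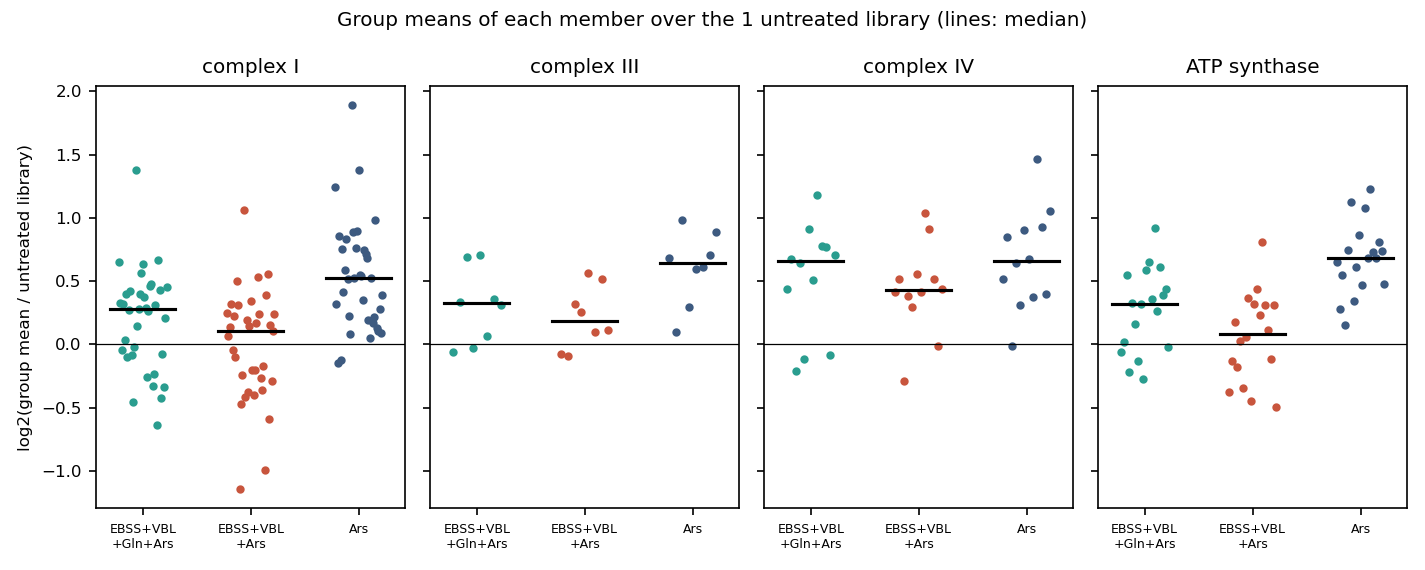
Log2 ratio of each member's group mean to its value in the 1 untreated library, by complex, for EBSS+VBL+Gln+Ars, EBSS+VBL+Ars and Ars cells (points are members, lines are medians). The median ratio over all 73 members is 1.25 with glutamine, 1.11 in starved cells and 1.53 in Ars cells, and the untreated library has no replicate.

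Levels between members are compared per kilobase of the main annotated transcript. Over the 9 replicated libraries ATP5MC2 had 2230.1 normalized counts per kilobase, COX8A 1636 and COX4I1 1172, the 3 highest. NDUFV1 had 627, UQCRC1 969 and ATP5F1B 842. NDUFA9 and UQCRB, whose annotated transcripts are long, had 7.46 and 12.9.

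Of the 13 members with a mean under 10, 10 were under 4 normalized counts in every library and 4 of those were at 0 in all. They include the forms of complex IV subunits known from particular tissues, COX4I2, COX6A2, COX6B2, COX7A1, COX7B2 and COX8C, and also NDUFA4L2, a relative of NDUFA4. The forms found in most tissues and NDUFA4 accounted for nearly all counts of these pairs. COX7A1 was at 0 in every library, while COX7A2 had 360.4, 298 and 276 in glutamine-recovered libraries, 359, 257 and 259 in starved libraries, 343, 362 and 343 in Ars libraries and 219 in the untreated library. COX8C was also at 0 in every library, COX6A2 was above 0 only in starved replicate 2 (1.75 normalized counts) and COX4I2 only in the untreated library (0.951). COX6B2 had 0, 0 and 0 in glutamine-recovered, 1.12, 0 and 2.21 in starved, 0.675, 0.932 and 1.68 in Ars libraries and 0 in the untreated library. COX7B2 had 0, 0 and 0.685 in glutamine-recovered, 1.12, 0 and 0 in starved, 0.675, 1.86 and 0.838 in Ars libraries and 0 in the untreated library. NDUFA4L2 had 0, 2.18 and 0 in glutamine-recovered, 1.12, 3.49 and 0 in starved, 0.675, 0 and 1.68 in Ars libraries and 0 in the untreated library. These are a few reads at most and show no order of the groups. The 13 also hold the readthrough genes ATP5MF-PTCD1 and NDUFC2-KCTD14, the gene copies ATP5MGL and UQCRHL, and NDUFA7.

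The last, NDUFV2, is a core subunit of complex I and had 6.49, 5.44 and 6.17 normalized counts in glutamine-recovered, 4.49, 8.73 and 6.63 in starved, 9.45, 10.2 and 10.1 in Ars cells and 6.66 in untreated cells. Exons of another gene cover 7.23% of its transcript. NDUFA7, of which they cover 77.9%, had 6.49, 3.27 and 3.43 in glutamine-recovered, 3.37, 1.75 and 9.94 in starved, 3.38, 0 and 0.838 in Ars and 0.951 in untreated cells. The part of such overlap in these low values was not tested. UQCRHL had 9.74, 3.27 and 5.48 in glutamine-recovered, 4.49, 5.24 and 2.21 in starved, 9.45, 6.52 and 7.55 in Ars and 3.804 in untreated cells, against 254, 195 and 246 for UQCRH in glutamine-recovered, 309, 258 and 207 in starved, 316, 261 and 309 in Ars and 181 in untreated cells. UQCRH and UQCRHL nearly share their coding sequence, so how reads were split between them is uncertain. Of the 73 tested members 43 have pseudogene rows in the table, up to 17 for 1 gene, and none of the 151 pseudogene rows had a mean of at least 10. Exons of 24 tested members overlap those of another gene, 13 on the other strand and 14 on the same strand, among them 9 of the 25 called lower. Such overlap covered 70.6% of the transcript of ATP5PO, 51.3% of NDUFS7, 35.4% of COX8A and 32.7% of ATP5F1E, but 0.514% of NDUFB6. The sources used here do not say whether counting used strand, and reads of such pairs cannot be told apart without it.

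Genes of the same pathway outside the members were counted from lists drawn up for this pathway, and are set beside the 21.3% of all genes tested that were called lower and the 21.5% called higher in starved against Ars cells. The lists are short. Of 16 complex I assembly factors tested 5 were lower in starved than in Ars cells (31.2%) and none higher. NDUFAF3 had 154, 183 and 202 normalized counts in starved libraries and 294, 300.0 and 286 in Ars libraries (log2 fold change -0.71 ± 0.12, limma adjusted p = 7.33e-05). With glutamine against starved cells 4 of the 16 were called higher (25%, against 8.45% of all genes tested) and 1 lower. NDUFAF3 was one of the 4, at 299.8, 333 and 291 in glutamine-recovered libraries (log2 fold change 0.78 ± 0.12, limma adjusted p = 1.79e-04). The one called lower was ECSIT, named after its values were seen, with 282, 356 and 306 in glutamine-recovered and 458, 433 and 556 in starved libraries (log2 fold change -0.61 ± 0.12, limma adjusted p = 0.00136). Of 6 complex III assembly factors 3 were lower and 1 higher. UQCC2 had 144, 147 and 143 in starved and 316, 297 and 329.5 in Ars libraries (log2 fold change -1.12 ± 0.12, limma adjusted p = 1.71e-07).

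Of 19 complex IV assembly factors 3 were lower (15.8%) and 2 higher (10.5%), both under the shares of all genes tested, 21.3% and 21.5%. LRPPRC, which stabilizes mitochondrial mRNAs, had 616, 433 and 498 normalized counts in starved and 318, 263 and 305 in Ars libraries (log2 fold change 0.79 ± 0.13, limma adjusted p = 2.97e-05), while COA3, which helps build COX1, had 61.8, 80.3 and 67.4 in starved and 157, 145 and 158 in Ars libraries (log2 fold change -1.13 ± 0.15, limma adjusted p = 3.07e-06). Of 4 ATP synthase assembly factors 2 were lower, and ATPAF1, a chaperone of the catalytic head, had 57.3, 43.7 and 36.5 in starved and 119, 109 and 137 in Ars libraries (log2 fold change -1.41 ± 0.20, limma adjusted p = 5.75e-06). Complex II, which joins the citric acid cycle to the chain, had 1 of 4 subunits lower. It was SDHB, with 192, 157 and 134 in starved and 312, 227 and 262 in Ars libraries (log2 fold change -0.73 ± 0.15, limma adjusted p = 3.60e-04). Of its 3 assembly factors tested 1 was lower, SDHAF3, at -1.71 ± 0.33. Cytochrome c (CYCS) and cytochrome c1 (CYC1) were not called. CYC1 is a complex III subunit that the name rule does not take, so the complex III counts and sums leave it out. Its mean over the 9 replicated libraries was 2188 normalized counts, against 1546 for UQCRC1.

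The subunits encoded by mitochondrial DNA had 1 of 13 genes lower (7.69%) and 2 higher (15.4%) in starved cells, against 21.3% and 21.5% of all genes tested, with a median log2 fold change of -0.04 against -0.45 for the nuclear members. MT-ND3 had 3074, 4536 and 3658 normalized counts in starved and 2160.3, 1942 and 2324 in Ars libraries (log2 fold change 0.80 ± 0.13, limma adjusted p = 2.90e-05), while MT-ND6, the one encoded on the light strand, had 60.7, 78.6 and 91.7 in starved and 167, 115 and 144 in Ars libraries (log2 fold change -0.88 ± 0.18, limma adjusted p = 4.15e-04). Whether the nuclear and mitochondrial subunits differ was not tested. Of 12 regulators of mitochondrial biogenesis tested none was lower and 5 were higher (41.7%, against 21.5% of all genes tested). PPRC1, a relative of the coactivator PGC-1alpha, had 1158, 1334 and 1380.0 in starved and 440.2, 526 and 458 in Ars libraries, and 1787 in the untreated library (starved against Ars, log2 fold change 1.44 ± 0.12, limma adjusted p = 8.08e-09). ESRRA, an orphan nuclear receptor of mitochondrial genes, had 302, 288 and 303 in starved and 151, 184 and 139 in Ars libraries, and 262 in the untreated library (log2 fold change 0.92 ± 0.12, limma adjusted p = 4.48e-06). NRF1 and YY1, whose letters were searched above, were not called. GABPA, a gene of GABP, passed the p threshold and fell just short of 1.5-fold (log2 fold change 0.58 ± 0.22, limma adjusted p = 0.0278). GABPB1 was not called either (0.19 ± 0.18).

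Reads on genes numbered 3538017 to 7019842 per library, so that 1 read was worth 0.675 to 1.75 normalized counts, and RN7SL1, the 7SL RNA, accounted for 7.88 to 20.2% of them. The members together took 0.416 to 0.487% of reads in glutamine-recovered libraries, 0.324 to 0.393% in starved, 0.479 to 0.577% in Ars libraries and 0.380% in the untreated library. Starved replicate 3 was the lowest of its group in 35 of 73 members. Among markers of the cell line, COL1A1, SPARC, RUNX2 and ALPL were present, while COL1A2, SP7, BGLAP and TWIST1 had a mean under 10, with TWIST1 at 0 in every library. None of 6 markers of blood, epithelial, liver and endothelial cells had a mean of at least 10, and the highest was EPCAM at 1.90 to 9.74.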

How the data were processed

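Total RNA of U2OS cells depleted of ribosomal RNA was sequenced by the authors, aligned to hg38 with STAR and counted per gene with HTSeq, whose versions are not given in the sources used here. As deposited, the signal values are counts that DESeq2 scaled by library size, 1 value per gene and library, made by the authors. Every value (100%) was a whole multiple of 1 read within 0.01 reads, so the reads were recovered.

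Out of 60671 genes, 12971 averaged 10 normalized counts or more in the 9 replicated libraries. These were fitted as log2(normalized count + 1), which understates changes of low genes, with limma 3.58.1 (R 4.3.3, eBayes with a trend, all 3 groups in 1 fit, no block), two-sided, with Benjamini-Hochberg adjustment over all genes. Called meant an adjusted p under 0.05 and at least 1.5-fold. The untreated library was outside the fit. Transcript length, GC content and coordinates came from GENCODE release 44 on hg38, and 60401 IDs matched. Promoters were those of the RefSeq table whose start is nearest the main transcript's. The fit was tested on simulated counts with planted changes and the same dispersion for every gene. That checks the code and says nothing of the spread between these libraries. The values of 1 complex I member are not reported here, while the counts over members include it.

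Members and lists were chosen with earlier results of these data known. Values of each library were given for the 4 members of each complex with the smallest p in starved against Ars cells, members called higher there, members called with glutamine, the member with the highest mean of each complex, isoform sets and ATP5IF1. Alternatives were pseudocounts of 0.5 and 5, no filter, a minimum mean of 50, quantile normalization, equal totals, a replicate block, a fit of only the groups compared, no minimum fold, edgeR 4.0.16 and DESeq2 1.42.0 on recovered reads, removal of trends with GC content and length, and each library left out.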

Additional observations from a re-analysis of the deposited data

How the results depend on the processing

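The count of members lower in starved than in Ars cells was 25, 28 with edgeR, 27 with DESeq2 and 21 to 34 with 1 library left out, and it became 44 with equal totals (27.9% of all genes tested) and 50 with no minimum fold (27.5%). Members higher there numbered 1, and 0 with equal totals or quantile normalization and 0 to 1 with 1 library left out. With glutamine against starved cells the count higher was 4, against 20 with equal totals (21.9% of all genes), 7 with the length trend removed (8.26%), 9 with no minimum fold (13.0%) and 2 to 8 with 1 library left out, and the count lower was 0, against 1 with no minimum fold. With glutamine against Ars cells 12 were lower, against 7 with equal totals (12.3% of all genes), 30 with no minimum fold (21.6%) and 9 to 19 with 1 library left out, and 1 was higher, against 0 with the GC trend removed and 2 with no minimum fold. Equal totals moved the median log2 fold change of all genes tested to -0.16 for starved against Ars, 0.28 for glutamine against starved and 0.12 for glutamine against Ars cells. The members' medians under equal totals were -0.63, 0.44 and -0.24. Of 30 values of named members 17 kept their call in every setting, and none changed sign. Causes of these shifts were not tested. Depth of 3538017 to 7019842 reads limits members with few counts.

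Replicate numbers were not taken to pair the libraries, since not every pair of 1 number correlated above 0.1. Deviations from group means correlated at 0.01 to 0.31 among replicates 1, 0.15 to 0.22 among replicates 2 and -0.06 to 0.03 among replicates 3, over 0.1 in 4 of 9 cases, against -0.31 to 0.21 and 4 of 18 cases between different numbers. With the replicate block 25 members were lower and 1 higher in starved against Ars, 0 lower and 4 higher in glutamine against starved, and 14 lower and 1 higher in glutamine against Ars cells.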
